A study of Homo sapiens with 9 samples.

Results

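A set of 10 copper and platinum handling genes was followed through human cells adapted to oxaliplatin, cells adapted to sorafenib and untreated cells. The genes were chosen by name, with earlier results of these data known. They are the 10 rows of 60683 in each count table whose gene name is ATP7A, ATP7B, SLC31A1, SLC31A2, ATOX1, CCS, COX17, SLC22A3, SLC47A1 or SCO1. In the oxaliplatin libraries ATP7A was 2.63-fold higher than in untreated libraries, while the copper chaperone gene ATOX1 and the organic cation carrier gene SLC22A3 were lower, at 0.601 and 0.527 of the untreated level. In the sorafenib libraries ATP7A was 1.58-fold higher than in untreated ones, a difference that passed the test by a narrow margin and lost its call in 11 of 18 alternative analyses. With a correction for GC content and transcript length the ATP7A differences were smaller, at 0.84 and 0.35 on the log2 scale, and the oxaliplatin one was still called.

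The cells carry the label HCT-15, a line from a human colorectal adenocarcinoma, and the genotype WT in all 9 libraries, with 3 libraries in each of the groups oxaliplatin, sorafenib and untreated. The oxaliplatin cells had received this platinum drug at 0.5 µM for 7 days, then at 1, 2 and 4 µM between day 10 and day 30, and were kept in 4 µM afterwards. The sorafenib cells were adapted to that kinase inhibitor in a like manner, at doses the labels do not give, and the untreated cells received no drug. All were grown in RPMI1640 with fetal bovine serum, and no group is described as cloned from a single cell or as having had a drug-free period before RNA was taken. The question the design poses is what differs in cells that have adapted to each drug, and neither group shows a response to a first or short exposure.

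Copper enters cells mainly through the high-affinity transporter CTR1, the product of SLC31A1, and is handed to small chaperone proteins, because free copper is toxic. ATOX1 carries it to the ATPases ATP7A and ATP7B, which load copper enzymes in the Golgi and export the surplus, CCS carries it to superoxide dismutase, and COX17 and SCO1 pass it to cytochrome c oxidase in mitochondria. Platinum drugs can bind to several of these proteins, and CTR1, the copper ATPases and organic cation carriers have each been studied as routes by which platinum enters or leaves tumour cells.

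The libraries held between 15797076 and 20936536 counts, and levels are given in CPM, a gene's counts scaled to a common library size with TMM factors between 0.944 and 1.05. Nothing states that the 3 libraries of a group came from separate cultures, and their titles carry the same code within all groups, so each p-value reflects only how far these libraries spread, and that spread may be technical. Of 15 marker genes of colorectal epithelium, 14 had a median under 1 CPM and 9, among them CDX2 and CDH1, had 0 counts in all 9 libraries, so the markers go against the labelled tissue. Summed, these markers ran from 17.3 to 21.4 CPM in oxaliplatin, 16.4 to 18.3 CPM in sorafenib and 14.2 to 19.5 CPM in untreated libraries. All 11 markers of renal epithelium had a median of at least 1 CPM, and their sum ran from 1054 to 1126 CPM in oxaliplatin and 1131 to 1140 CPM in sorafenib libraries, against 690 to 968 CPM in untreated ones. In oxaliplatin against untreated 6 of the 11 renal markers were called higher and 1 lower, where 16.2% and 15.5% of all tested genes were. In sorafenib against untreated 1 was called higher and 0 lower, where 2.82% and 1.97% of all tested genes were. The part of these markers in the results below was not tested. Of 6 immune markers 5 had a median under 1 CPM and 3 were at 0, with sums of 20.4 to 57.7 CPM in oxaliplatin, 17.6 to 50.3 CPM in sorafenib and 25.5 to 48.0 CPM in untreated libraries. Of 7 fibroblast and endothelial markers 6 had a median under 1 CPM and 4 were at 0, with sums of 12.6 to 19.8, 1.39 to 2.39 and 6.16 to 43.1 CPM in the same order of groups, and their part was not tested either. In bulk RNA, fewer cells of a type and less RNA per cell cannot be told apart.

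Of the copper exporting ATPases, ATP7A rose in both drug groups and ATP7B did not pass the test. ATP7A (ENSG00000165240, chrX:77910656-78050395, GRCh38, plus strand) is the ATPase of most tissues outside the liver, and its loss causes Menkes disease. Its level was 18.3, 19.3 and 16.2 CPM in oxaliplatin libraries 1 to 3, 9.29, 12.1 and 10.8 CPM in sorafenib libraries and 7.51, 6.91 and 6.05 CPM in untreated libraries. No value of any group overlapped another group's, with oxaliplatin highest, sorafenib between and untreated lowest. The log2 fold change of oxaliplatin over untreated was 1.40 ± 0.16 (SE, n = 3 libraries each, 95% interval 1.04 to 1.75, adjusted p = 0.00114). Every adjusted p here comes from edgeR (quasi-likelihood test, Benjamini-Hochberg over 16159 genes) unless another tool is named, and a gene is called where it is under 0.05. Sorafenib over untreated gave 0.66 ± 0.16 (adjusted p = 0.0461), and oxaliplatin over sorafenib gave 0.74 ± 0.16 (adjusted p = 0.0179). The call against untreated in sorafenib ended without any one of untreated 2 or 3, oxaliplatin 1 or 2, or sorafenib 2 or 3 (adjusted p 0.0675 to 0.179), and the call between the drugs ended without oxaliplatin 1 or 2 or sorafenib 1 or 3 (0.0600 to 0.0706). The oxaliplatin call against untreated held without each library, with fold changes of 1.31 to 1.47 on the log2 scale, and came to 0.84 ± 0.12 with the GC and length correction.

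ATP7B (ENSG00000123191, chr13:51930436-52012125, minus strand) is the related ATPase of the liver, mutated in Wilson disease. It had 12.2, 9.98 and 6.14 CPM in oxaliplatin libraries, 7.12, 4.26 and 5.20 CPM in sorafenib libraries and 6.57, 5.42 and 5.57 CPM in untreated libraries. Oxaliplatin libraries 1 and 2 lay above every other library, and oxaliplatin 3 lay inside the range of the untreated ones. Oxaliplatin over untreated gave a log2 fold change of 0.70 ± 0.27 (95% interval 0.09 to 1.30, adjusted p = 0.0753), and that of sorafenib over untreated was -0.08 ± 0.27 (adjusted p = 0.884). Oxaliplatin over sorafenib gave 0.78 ± 0.27 (adjusted p = 0.0969). Without oxaliplatin 3 ATP7B passed the test in both oxaliplatin comparisons, at 0.93 over untreated (adjusted p = 0.0200) and 1.01 over sorafenib (adjusted p = 0.0320), and with library size as the only scaling it passed over untreated with all 9 libraries, at 0.81 (adjusted p = 0.0451). With the GC and length correction it was at 0.33 ± 0.29 over untreated (adjusted p = 0.414), and without oxaliplatin 1 at 0.46 (adjusted p = 0.269).

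**Figure D1:**
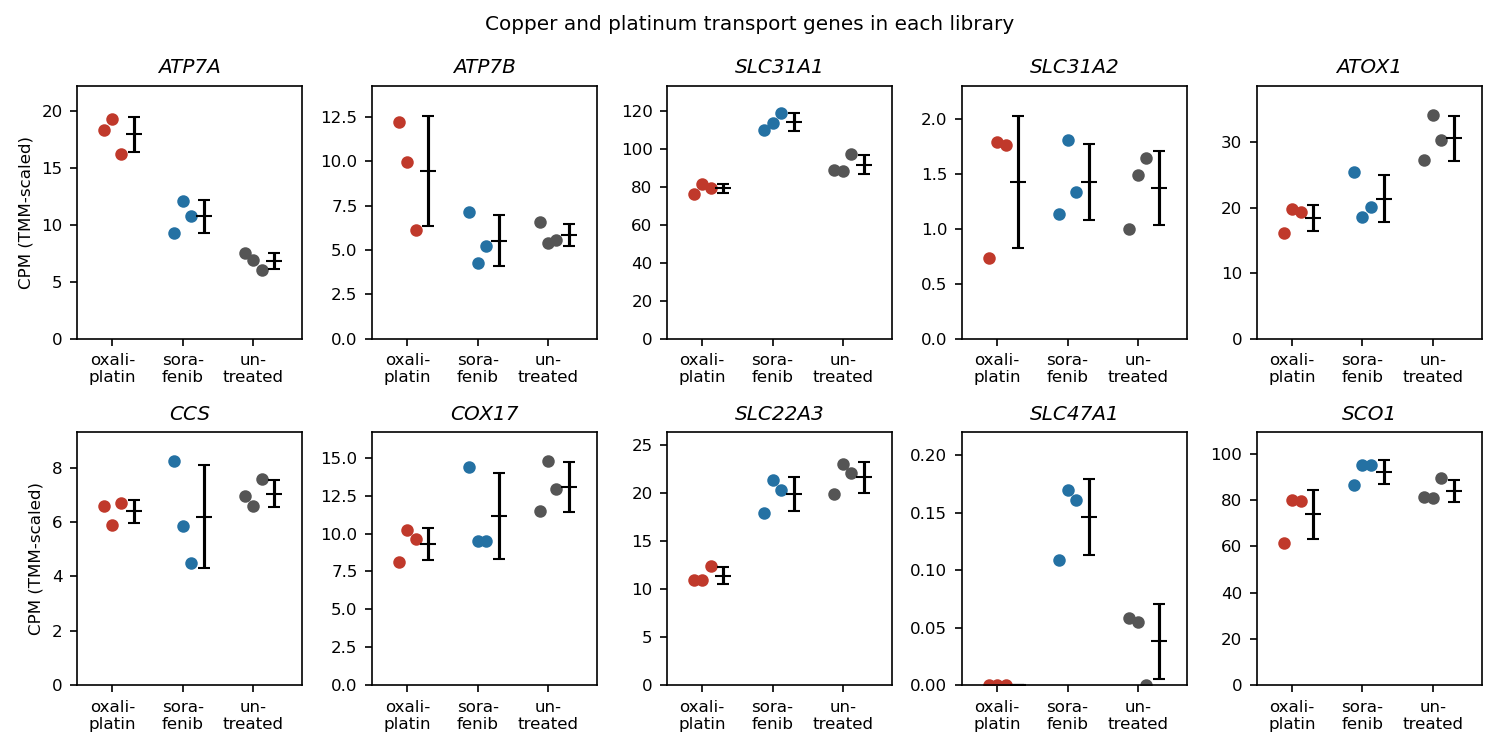
Level of each of the 10 genes in CPM (vertical axis, starting at 0), with 1 point per library for oxaliplatin, sorafenib and untreated from left to right, and bars for mean and SD (n = 3). ATP7A stands apart in all 3 groups, while ATP7B spreads from 6.14 to 12.2 CPM within the oxaliplatin group.

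ATP7A overlaps PGK1 (ENSG00000102144, chrX:77910739-78129295), which encodes the glycolytic enzyme phosphoglycerate kinase, on the same strand, and PGK1 was far more abundant. In GENCODE 29 the overlap in exons was 97 bases, 0.888% of the 10920 exon bases of ATP7A, and came from 1 of the 6 PGK1 transcripts, which starts at position 77910739. The PGK1 transcript with the most exon bases starts at 78104174, beyond the end of ATP7A. The annotation release behind the counts is not given in the sources used here, so this overlap could differ from the one the counting used. PGK1 had 575, 613 and 547 CPM in oxaliplatin libraries, 671, 655 and 690 CPM in sorafenib libraries and 714, 713 and 722 CPM in untreated libraries. It was lowest in all 3 oxaliplatin libraries, opposite to ATP7A, with a log2 fold change over untreated of -0.31 ± 0.09 (adjusted p = 0.0266), a call that ended without untreated 2 or 3 or oxaliplatin 1 or 3 (0.0629 to 0.0893), when libraries were scaled by size alone (-0.19, adjusted p = 0.121) and with the replicate number as a block (0.0776). With the GC and length correction it was -0.64 ± 0.09 (adjusted p = 0.00162). Per 100 PGK1 counts there were 3.19, 3.15 and 2.97 ATP7A counts in oxaliplatin libraries, 1.38, 1.86 and 1.57 in sorafenib libraries and 1.05, 0.969 and 0.838 in untreated libraries. The groups did not overlap in this ratio, and the exact 2-sided permutation test gave p = 0.1 for each of the 3 comparisons, the smallest that 3 libraries against 3 can give. A transcribed pseudogene, AL356235.1, shares 287 exon bases with ATP7A and had 1 to 14 counts.

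**Figure D2:**
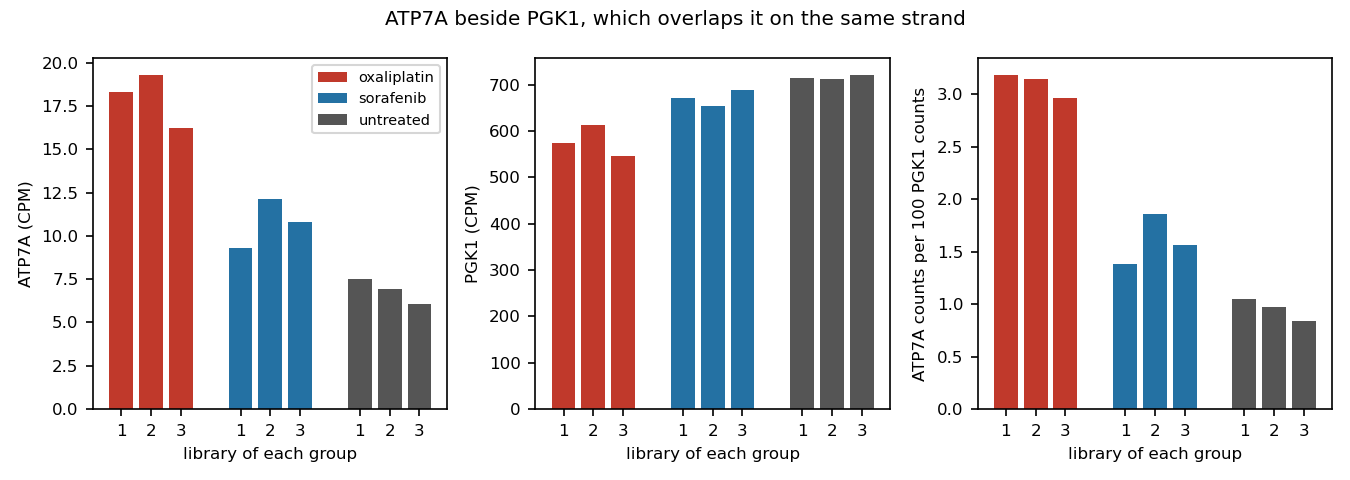
ATP7A and PGK1 in CPM and the number of ATP7A counts per 100 PGK1 counts, with 1 bar per library and oxaliplatin, sorafenib and untreated from left to right. ATP7A is highest in oxaliplatin at 16.2 to 19.3 CPM while PGK1 is lowest there at 547 to 613 CPM, so the ratio separates the groups further than ATP7A alone.

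The upstream sequences below show what the ATP7A promoter holds beside those of the metallothionein genes MT2A and MT1X, whose metal response elements bind the metal-sensing factor MTF1, and beside ATOX1 and COX17. Each line gives the 210 bases from 250 to 41 bases before the RefSeq transcription start (GRCh38.p14, written 5′ to 3′ along the gene's strand). Capitals mark metal response cores (7 bases), searched as TGCACNC and TGCGCNC on both strands, and no other motif was searched.
ATP7A, chrX:77910443-77910652, + strand: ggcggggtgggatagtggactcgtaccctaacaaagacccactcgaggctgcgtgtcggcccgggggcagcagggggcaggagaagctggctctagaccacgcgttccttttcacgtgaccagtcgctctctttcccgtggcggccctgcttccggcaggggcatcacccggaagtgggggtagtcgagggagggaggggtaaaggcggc
ATOX1, chr5:151758672-151758881, - strand: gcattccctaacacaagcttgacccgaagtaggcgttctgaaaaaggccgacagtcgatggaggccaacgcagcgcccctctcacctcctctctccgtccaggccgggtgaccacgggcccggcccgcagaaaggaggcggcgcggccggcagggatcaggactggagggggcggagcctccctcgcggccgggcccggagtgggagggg
COX17, chr3:119677447-119677656, - strand: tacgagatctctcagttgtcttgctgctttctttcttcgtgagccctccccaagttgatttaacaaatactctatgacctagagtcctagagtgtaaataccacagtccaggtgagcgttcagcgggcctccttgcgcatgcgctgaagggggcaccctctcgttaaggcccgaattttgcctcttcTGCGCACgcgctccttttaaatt
MT2A, chr16:56608334-56608543, + strand: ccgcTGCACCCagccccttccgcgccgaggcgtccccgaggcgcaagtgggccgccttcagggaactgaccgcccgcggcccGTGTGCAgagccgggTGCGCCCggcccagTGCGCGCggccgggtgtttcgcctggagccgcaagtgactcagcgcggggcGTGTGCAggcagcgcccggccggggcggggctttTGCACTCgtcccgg
MT1X, chr16:56682220-56682429, + strand: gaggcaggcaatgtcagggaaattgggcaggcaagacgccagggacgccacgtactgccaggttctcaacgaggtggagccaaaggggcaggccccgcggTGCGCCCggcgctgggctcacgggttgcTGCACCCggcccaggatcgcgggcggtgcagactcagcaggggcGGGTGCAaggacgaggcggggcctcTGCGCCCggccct
The MT2A window held 6 cores and the MT1X window 4, the COX17 window 1, and those of ATP7A and ATOX1 held 0. ATP7B, SLC31A1, CCS and SCO1 also had 0 cores in this window, as did MTF1 itself, and 7 of the 10 genes could be matched to a RefSeq promoter. Of 35116 promoter windows of the same length, 20.7% had at least 1 core and 0.24% at least 4. A core is a run of letters and not a shown binding site.

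The main copper importer gene passed the test between the 2 drug groups and not against untreated cells. SLC31A1 (ENSG00000136868, chr9:113221544-113264492) had 76.3, 81.4 and 79.6 CPM in oxaliplatin libraries, 109.7, 114 and 119 CPM in sorafenib libraries and 88.9, 88.5 and 97.3 CPM in untreated libraries. Untreated libraries lay between the drug groups, without overlap with either. Oxaliplatin fell below sorafenib by a log2 fold change of -0.53 ± 0.09 (adjusted p = 0.00816), a call that held in all 18 alternative analyses. Against untreated, the log2 fold changes were -0.21 ± 0.09 in oxaliplatin (adjusted p = 0.105) and 0.32 ± 0.09 in sorafenib (adjusted p = 0.0728), and neither passed the test. DESeq2 called the sorafenib difference (adjusted p = 0.0295). Correcting each library for GC content and transcript length gave -0.52 ± 0.08 in oxaliplatin over untreated, which was then called (adjusted p = 0.00287). The processed pseudogene SLC31A1P1 had 0 to 14 counts.

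SLC31A2 (ENSG00000136867, chr9:113150976-113164140) encodes CTR2, a low-affinity relative of CTR1 found mainly on internal membranes. It was near the limit of what these libraries can show, at 0.733, 1.79 and 1.76 CPM in oxaliplatin libraries, 1.14, 1.82 and 1.34 CPM in sorafenib libraries and 0.997, 1.49 and 1.64 CPM in untreated libraries. The 3 groups overlapped throughout. Oxaliplatin over untreated stood at a log2 fold change of 0.03 ± 0.38 with a 95% interval of -0.82 to 0.89, and that of sorafenib over untreated was 0.05 ± 0.38 with an interval of -0.80 to 0.91, so changes below those bounds were not detectable at this depth. Of its 2504 exon bases 63.1% lie over FKBP15 on the opposite strand, a gene at 72.2 to 81.4 CPM, and without a stated strand setting the reads of these genes cannot be told apart.

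Among the cytosolic chaperones, ATOX1 fell and CCS gave no detectable difference. ATOX1 (ENSG00000177556, chr5:151742316-151772532), which passes copper to ATP7A and ATP7B, had 16.1, 19.7 and 19.4 CPM in oxaliplatin libraries, 25.5, 18.6 and 20.1 CPM in sorafenib libraries and 27.3, 34.2 and 30.3 CPM in untreated libraries. All 6 drug libraries lay below all 3 untreated ones, and the drug groups overlapped each other. The log2 fold change was -0.74 ± 0.16 in oxaliplatin over untreated (adjusted p = 0.00822), which held in all 18 alternative analyses, and -0.52 ± 0.16 in sorafenib over untreated (adjusted p = 0.0815). The sorafenib difference passed the test without sorafenib 1 (adjusted p = 0.0322) and by DESeq2 (0.0396). Oxaliplatin and sorafenib differed by -0.22 ± 0.16 (95% interval -0.57 to 0.13, adjusted p = 0.400), so the data do not show that ATOX1 differed between the drugs. ATOX1 shares 130 exon bases, 2.48% of its own, with G3BP1 on the opposite strand.

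CCS (ENSG00000173992, chr11:66593153-66606019), the copper chaperone of superoxide dismutase 1, had 6.60, 5.91 and 6.69 CPM in oxaliplatin libraries, 8.26, 5.85 and 4.50 CPM in sorafenib libraries and 6.98, 6.58 and 7.59 CPM in untreated libraries. The widest spread was within the sorafenib group, which covered the whole range of the other two. The log2 fold changes over untreated were -0.14 ± 0.22 in oxaliplatin (95% interval -0.62 to 0.35, adjusted p = 0.653) and -0.18 ± 0.22 in sorafenib (-0.67 to 0.30, adjusted p = 0.633). With the GC and length correction the oxaliplatin value turned to 0.20.

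The mitochondrial copper genes were lower in oxaliplatin libraries without passing the test. COX17 (ENSG00000138495, chr3:119654513-119677454), the chaperone that supplies copper in the space between the mitochondrial membranes, had 8.11, 10.2 and 9.61 CPM in oxaliplatin libraries, 14.4, 9.54 and 9.48 CPM in sorafenib libraries and 11.5, 14.8 and 12.9 CPM in untreated libraries. The oxaliplatin values lay below all untreated ones, and sorafenib 1 stood apart from the other two sorafenib libraries. The log2 fold changes over untreated were -0.49 ± 0.20 in oxaliplatin (95% interval -0.94 to -0.05, adjusted p = 0.0837) and -0.23 ± 0.20 in sorafenib (adjusted p = 0.493). The oxaliplatin difference passed the test when sorafenib 1 was left out of the fit (adjusted p = 0.0399). The processed pseudogene COX17P1 had 3 to 18 counts. Of the exon bases of COX17 itself, 383 lie in POPDC2 on the same strand, which had 0 to 6 counts.

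SCO1 (ENSG00000133028, chr17:10672474-10698375), which inserts copper into a subunit of cytochrome c oxidase, had 61.7, 80.3 and 79.5 CPM in oxaliplatin libraries, 86.4, 95.5 and 95.3 CPM in sorafenib libraries and 81.4, 80.9 and 89.6 CPM in untreated libraries. Oxaliplatin 1 was well below the rest, and oxaliplatin 2 and 3 lay just under the untreated range. The log2 fold changes were -0.19 ± 0.12 in oxaliplatin over untreated (adjusted p = 0.266), 0.14 ± 0.12 in sorafenib over untreated (adjusted p = 0.512) and -0.32 ± 0.12 in oxaliplatin over sorafenib (adjusted p = 0.119). With the GC and length correction SCO1 was called lower in oxaliplatin than in untreated libraries, at -0.75 ± 0.13 (adjusted p = 0.00441), and than in sorafenib libraries, at -0.59 ± 0.13 (adjusted p = 0.0199), and the sorafenib value turned to -0.16.

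Of the organic cation carriers, SLC22A3 fell in oxaliplatin and SLC47A1 was at the detection limit. SLC22A3 (ENSG00000146477, chr6:160348378-160452577) encodes OCT3, a membrane carrier of organic cations. It had 10.9, 11 and 12.4 CPM in oxaliplatin libraries, 17.9, 21.4 and 20.3 CPM in sorafenib libraries and 19.9, 23.1 and 22.1 CPM in untreated libraries. Every oxaliplatin value was lower than every other library, and sorafenib and untreated overlapped. Its log2 fold change was -0.93 ± 0.13 in oxaliplatin over untreated (adjusted p = 0.00193) and -0.80 ± 0.13 in oxaliplatin over sorafenib (adjusted p = 0.00605), and both held in all 18 alternative analyses. Sorafenib over untreated was -0.13 ± 0.13 (95% interval -0.41 to 0.16, adjusted p = 0.578).

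SLC47A1 (ENSG00000142494, chr17:19495385-19579034) encodes the exporter MATE1, which moves organic cations out of kidney and liver cells. It had 0 counts in each of the 3 oxaliplatin libraries, 2, 3 and 3 counts in sorafenib libraries and 1, 1 and 0 counts in untreated libraries. With 0 counts, as many as 3 remain possible from counting error alone, which is 0.138 to 0.182 CPM across libraries, so no library was above the limit and no fold change is given. Of the 10 genes, SLC47A1 alone did not pass the filter on low counts.

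**Figure D3:**
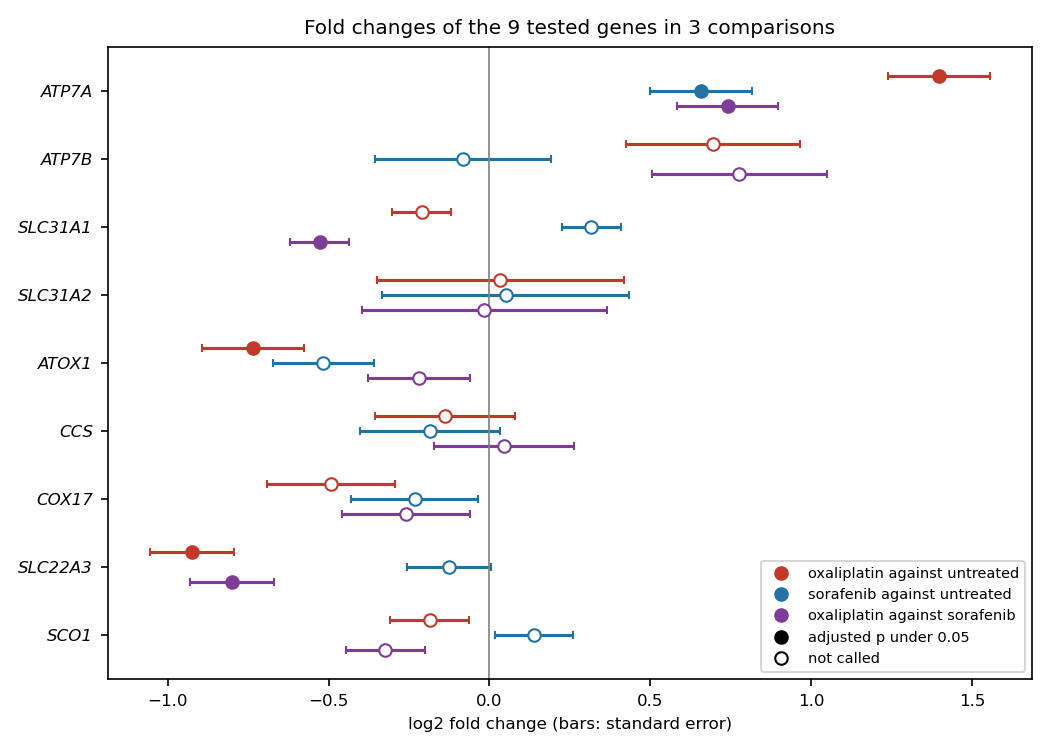
Log2 fold changes (horizontal axis) of the 9 tested genes with bars for the standard error, for each drug over untreated and for oxaliplatin over sorafenib, filled where the adjusted p was under 0.05. ATP7A is filled on the right in all 3 comparisons, and SLC22A3 is filled on the left in both oxaliplatin comparisons.

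Over the 9 tested genes, 3 were called in oxaliplatin against untreated, 1 higher and 2 lower, where 31.7% of all tested genes were called, 16.2% higher and 15.5% lower. The share of the 9 genes called was near that background. Their groups did not overlap for 6 of 9 genes, 1 above and 5 below, where this held for 48.1% of tested genes. In sorafenib against untreated 1 gene was called, ATP7A, which was higher, where 4.8% of tested genes were called, 2.82% higher and 1.97% lower. No gene was called lower there by edgeR, while 1, ATOX1, was lower at an unadjusted p under 0.05 and by DESeq2. Groups did not overlap for 3 of the 9 genes, 2 above and 1 below, against 29.8% of tested genes. Between oxaliplatin and sorafenib 3 genes were called, 1 higher and 2 lower, where 10.3% were called, 5.2% higher and 5.07% lower. Groups did not overlap for 4 genes, 1 above and 3 below, against 34.9% of tested genes. The median log2 fold change of the 9 genes was -0.19 in oxaliplatin over untreated, -0.08 in sorafenib over untreated and -0.22 in oxaliplatin over sorafenib, with medians of 0.016, 2.53e-05 and -0.00561 over all tested genes. The oxaliplatin and sorafenib comparisons share the 3 untreated libraries, so their values are not independent of each other.

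The GC and length correction moved several of these values, as the plot of fold changes under the alternative analyses shows. The length used was that of each gene's longest basic GENCODE 29 transcript, 8483 bases for ATP7A. ATP7A, with 38.9% GC, came to 0.84 ± 0.12 in oxaliplatin over untreated and stayed called (adjusted p = 0.00187). It came to 0.35 ± 0.12 in sorafenib over untreated, which was no longer called (adjusted p = 0.106), and to 0.49 ± 0.12 in oxaliplatin over sorafenib (adjusted p = 0.0242). In oxaliplatin over untreated ATOX1 also moved down, from -0.74 ± 0.16 to -1.0 ± 0.18, and SLC22A3 from -0.93 ± 0.13 to -1.03 ± 0.12. Whether GC content or length plays a part in the uncorrected values was not tested further.

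**Figure D4:**
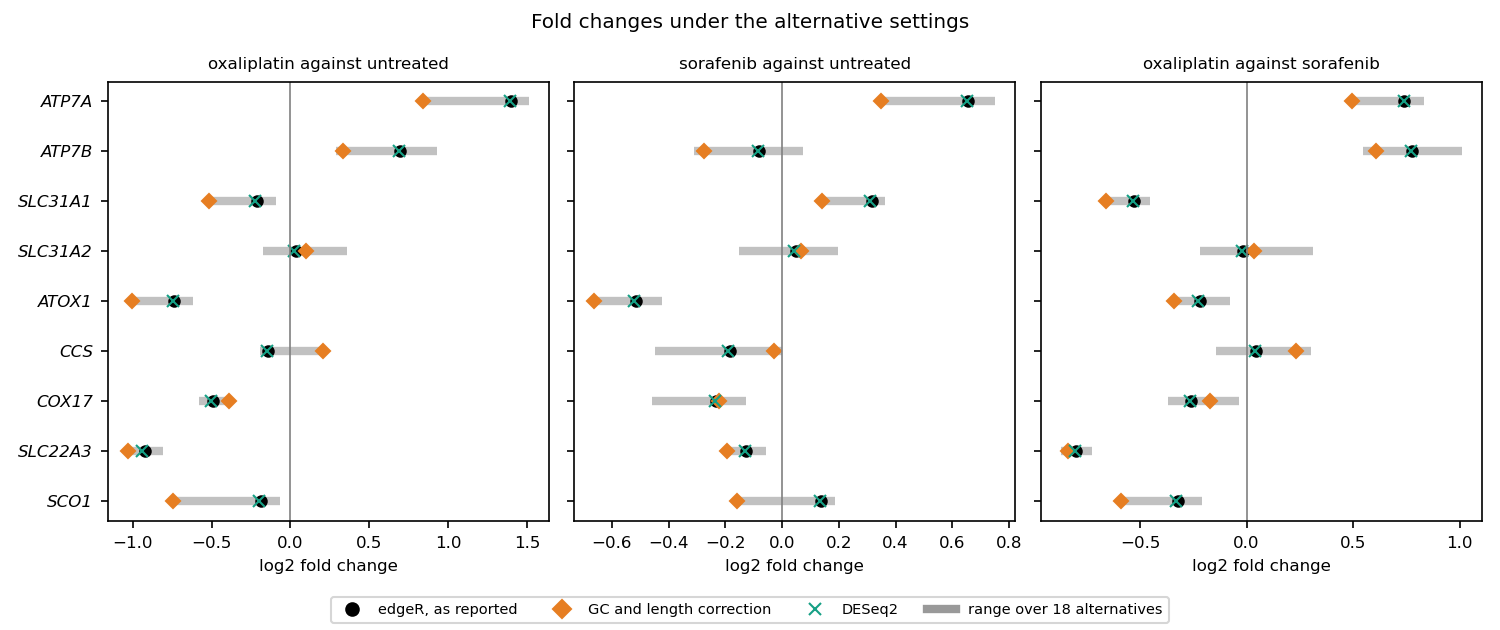
Log2 fold changes of the 9 tested genes as reported (black), after GC and length correction (orange), by DESeq2 (crosses), and their range over 18 alternative analyses (grey bars), for each comparison. For ATP7A in oxaliplatin over untreated the whole bar lies at 0.84 or more, and for SLC31A2 the bars span 0 in every comparison.

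Levels of different genes can be set beside each other only per length, and their order depends on the length used. Per kilobase of all annotated exons SLC31A1 came first, with 15.4 ± 0.504 CPM per kilobase in oxaliplatin, 22.2 ± 0.901 in sorafenib and 17.9 ± 0.971 in untreated libraries (mean ± SD, n = 3 each). SCO1 followed with 7.15 ± 1.02, 8.95 ± 0.504 and 8.13 ± 0.475 in the same order of groups. In untreated libraries SLC22A3, COX17 and ATOX1 came next at 6.48 ± 0.486, 6.02 ± 0.766 and 5.85 ± 0.659 and did not differ beyond their spread. CCS stood at 2.85 ± 0.205, and ATP7A, ATP7B and SLC31A2 at 0.625 ± 0.0673, 0.605 ± 0.0648 and 0.550 ± 0.135, again within their spread. In oxaliplatin libraries ATP7A reached 1.64 ± 0.144 CPM per kilobase, above ATP7B at 0.978 ± 0.319, and ATOX1, SLC22A3 and COX17 lay at 3.51 ± 0.385, 3.41 ± 0.253 and 4.28 ± 0.495. The union of GENCODE 29 exons understates genes with long rare exons, such as ATOX1, whose coding transcripts run from 466 to 4341 bases. With each gene's shortest coding transcript as its length, a choice made after the values were seen, SLC31A1 no longer came first: ATOX1 had 39.5, 46.0 and 65.7 CPM per kilobase and SCO1 46.1, 57.7 and 52.5 in oxaliplatin, sorafenib and untreated libraries, against 16.7, 24.0 and 19.3 for SLC31A1. By that length ATP7A and COX17 also lay above SLC31A1 in oxaliplatin libraries, at 31.5 ± 2.76 and 19.8 ± 2.28. With the longest one, COX17 reached 19.1 ± 2.43 in untreated libraries, within the spread of SLC31A1 at 19.3 ± 1.05 and above SCO1 at 8.74 ± 0.510. There ATP7A and ATP7B changed places, at 0.804 ± 0.0867 and 0.882 ± 0.0944.

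Over the 9 libraries, genes with the level pattern most like a called gene were sought among the 10134 protein-coding genes that averaged 5 CPM or more, by Pearson's r of log2 CPM and as a description only. Most like ATP7A were NXPE3, ZSCAN30 and KLHL9, at 0.995, 0.991 and 0.990. ATOX1 was matched best by OAZ1, PSMC3 and TOMM22 at 0.992, 0.992 and 0.989, and SLC22A3 by ENC1, ADCY1 and SLC7A5 at 0.985, 0.980 and 0.978. SLC31A1 was matched best by CLDN1, UBASH3B and DUSP5 at 0.986, 0.984 and 0.980. Among the genes themselves ATOX1 and COX17 had an r of 0.924, ATP7A and ATOX1 of -0.898 and ATP7A and SLC22A3 of -0.887. These 9 points share 3 groups and the scaling of each library, so the group differences alone give high values.

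Other genes of copper handling were read from lists by role. The lists here and in the paragraphs below were chosen with earlier results of these data known. A list's share beside that of all tested genes is therefore a description and no test of the list. In the chaperone list 3 of 6 tested genes fell in oxaliplatin against untreated, with a list median of -0.37, where 15.5% of all tested genes were called lower. They were ATOX1, SOD1, the copper and zinc superoxide dismutase that CCS loads, and CUTC, a copper binding protein. SOD1 had 177, 165 and 198 CPM in oxaliplatin libraries, 339, 217 and 236 CPM in sorafenib libraries and 332, 367 and 351 CPM in untreated libraries. Its oxaliplatin values lay below all others, and sorafenib 1 lay within the untreated range. The log2 fold change of oxaliplatin over untreated was -0.96 ± 0.16 (adjusted p = 0.00348), held in all 18 alternative analyses, against -0.44 ± 0.12 for CUTC (adjusted p = 0.0199), a call lost without untreated 2 or 3 or oxaliplatin 2 (0.0610 to 0.0769), with library size only (0.0524), with the replicate block (0.0519) and with block and GC and length correction together (0.0601).

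Of 13 tested genes of mitochondrial copper delivery, 6 fell and 1 rose in oxaliplatin against untreated, with a median of -0.37, against 15.5% lower and 16.2% higher over all tested genes. The 3 with the smallest adjusted p were COX16 and CHCHD7, of cytochrome c oxidase assembly and the space between the membranes, and SLC25A3, the phosphate carrier that also brings copper into the matrix. COX16 had 21.7, 22.2 and 17.9 CPM in oxaliplatin, 29.3, 25.7 and 21.6 CPM in sorafenib and 33.6, 40.6 and 38.5 CPM in untreated libraries, and its oxaliplatin values lay well below the untreated ones. The log2 fold changes were -0.87 ± 0.15 for COX16, -0.60 ± 0.11 for SLC25A3 and -0.46 ± 0.10 for CHCHD7 (adjusted p = 0.00383, 0.00478 and 0.0103), and all held in the 18 alternative analyses, with SLC25A3 at -1.01 ± 0.15 under the GC and length correction. The gene that rose, SCO2, a relative of SCO1 named here after its value was seen, was at 0.63 ± 0.22 (adjusted p = 0.0483) and lost its call without any of 7 libraries, untreated 1, 2 or 3, oxaliplatin 1 or 3, or sorafenib 2 or 3 (0.0605 to 0.145). SCO2 also lost it with no filter (0.0749), with the block (0.0814) and with only the 2 groups compared (0.0619), and came to 1.01 ± 0.13 with the GC and length correction (adjusted p = 0.00159). Over the alternatives the number that fell ranged from 3 to 7.

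In the list of copper ATPases and their trafficking factors 2 of 11 rose and 1 fell in oxaliplatin against untreated, with a median of -0.17, a share no higher than the 31.7% called over all tested genes. CCDC93, a subunit of a complex that returns ATP7A from endosomes to the cell surface, was at 0.50 ± 0.11 (adjusted p = 0.0106) and came to 0.06 ± 0.08 with the GC and length correction (adjusted p = 0.610). AP1M1, a clathrin adaptor subunit of the Golgi and endosomes, was at -0.49 ± 0.11 (adjusted p = 0.0114) and came to -1.15 ± 0.13 with that correction (adjusted p = 0.00126). Among 4 tested genes of copper uptake and reduction, the metalloreductase gene STEAP3 rose, where 16.2% of all tested genes did, with 65.0, 66.9 and 68.2 CPM in oxaliplatin libraries, 59.3, 64.8 and 65.9 CPM in sorafenib libraries and 50.5, 49.98 and 53.7 CPM in untreated libraries, while SLC11A2 and the SLC31 genes were not called. STEAP3 was at 0.38 ± 0.10 (adjusted p = 0.0158), lost without untreated 2 (0.0633), with no filter (0.0513) and with the GC and length correction, alone (0.0687) or with the block (0.0969). SLC11A2 was at -0.05 ± 0.12 (adjusted p = 0.802). It was called lower in 1 of 18 alternatives, the GC and length correction, at -0.32 ± 0.09 (adjusted p = 0.0213).

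Of the metallothioneins, small proteins that bind copper and zinc, MT2A and MT1X fell in oxaliplatin against untreated, while the gene of their activator MTF1 rose. MT2A had 185, 229 and 203 CPM in oxaliplatin libraries, 443, 407 and 518 CPM in sorafenib libraries and 354, 786 and 700 CPM in untreated libraries. MT1X had 5.78, 6.13 and 6.93 CPM in oxaliplatin libraries, 21.0, 18.5 and 16.8 CPM in sorafenib libraries and 11.9, 23.3 and 23.2 CPM in untreated libraries. Both genes were lowest in the 3 oxaliplatin libraries, and for both untreated 1 stood far below untreated 2 and 3. The log2 fold change of oxaliplatin over untreated was -1.58 ± 0.26 for MT2A (adjusted p = 0.00367) and -1.63 ± 0.25 for MT1X (adjusted p = 0.00251). Over the 18 alternative analyses these ran from -1.85 to -1.10 and from -1.89 to -1.33, with every call kept. MTF1 had 36.3, 34.1 and 35.2 CPM in oxaliplatin libraries, 23.1, 27.5 and 28.8 CPM in sorafenib libraries and 19.2, 17.6 and 17.6 CPM in untreated libraries. The groups did not overlap, with log2 fold changes over untreated of 0.96 ± 0.12 in oxaliplatin (adjusted p = 0.00145), kept in all 18 alternatives but at 0.48 ± 0.09 with the GC and length correction, and 0.55 ± 0.12 in sorafenib (adjusted p = 0.0354). The sorafenib call ended without untreated 2 or 3, oxaliplatin 1 or 2, or sorafenib 2 or 3 (0.0574 to 0.141), with the block (0.108), with only the 2 groups compared (0.0789) and with the GC and length correction, where it was 0.30 ± 0.09 (0.0729, and 0.150 with the block). MT1F, a tested gene under 1 CPM on average and named after its value was seen, was at -0.87 ± 0.57 (adjusted p = 0.267). Of the 12 genes listed 4 were tested, of which 2 fell and 1 rose where 15.5% and 16.2% of all tested genes did, and 8 metallothionein genes had 0 counts in every library. Metallothionein copies are close in sequence, and how reads matching several copies were counted is not given, so the split between them is uncertain.

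**Figure D5:**
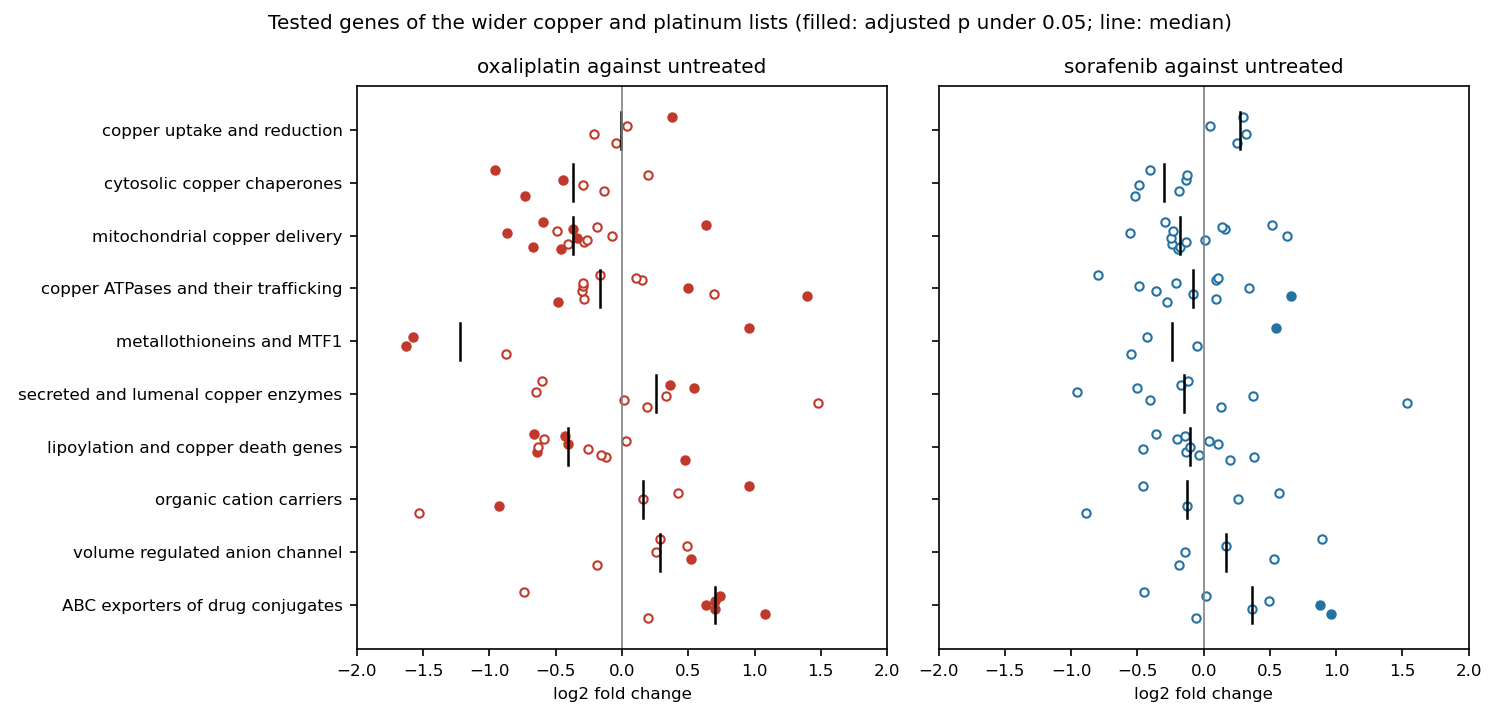
Log2 fold changes (horizontal axis) of the tested genes of 10 copper and platinum lists, oxaliplatin over untreated on the left and sorafenib over untreated on the right, filled where the adjusted p was under 0.05, with a line at each list's median. The 2 filled metallothionein points near -1.6 stand opposite MTF1 at 0.96 in oxaliplatin, and in sorafenib 4 points are filled.

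The copper enzymes of the secretory pathway, which ATP7A loads, gave 2 genes that rose of 8 tested in oxaliplatin against untreated, with a median of 0.26, where 16.2% of all tested genes were called higher and 31.7% in either direction. They were PAM, which amidates peptides, at 0.36 ± 0.09 (adjusted p = 0.0144), and MOXD1, a monooxygenase, at 0.54 ± 0.16 (adjusted p = 0.0291). Both calls ended with the GC and length correction, at -0.01 ± 0.08 and 0.42 ± 0.16 (adjusted p = 0.937 and 0.0713). PAM also lost its call without untreated 2 or oxaliplatin 1 or 2 (0.0536 to 0.0607), and MOXD1 without untreated 2 or 3 or any oxaliplatin library (0.0554 to 0.0962), with no filter (0.0721) and with the block (0.0671). Against sorafenib both were higher in oxaliplatin, at 0.54 ± 0.09 (adjusted p = 0.00682) and 1.05 ± 0.16 (adjusted p = 0.00473). LOXL2 was not called in oxaliplatin over untreated, at 0.33 ± 0.11 (adjusted p = 0.0521), and was called in 6 of 18 alternatives. With the GC and length correction it was at 0.31 ± 0.07 (adjusted p = 0.0134).

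Of 11 tested genes of protein lipoylation and of lipoylated enzyme complexes, which copper excess is known to disrupt, 4 fell and 1 rose in oxaliplatin against untreated, with a median of -0.41, against 15.5% lower and 16.2% higher over all tested genes. The pyruvate dehydrogenase genes PDHB and PDHA1 were at -0.66 ± 0.17 and -0.43 ± 0.11 (adjusted p = 0.0152 and 0.0185), and DLST, of the oxoglutarate dehydrogenase complex, at -0.64 ± 0.18 (adjusted p = 0.0245). None of the 3 calls held throughout: PDHB ended without untreated 2 or 3 or oxaliplatin 1 (0.0552 to 0.0631), PDHA1 without untreated 2 or 3 or oxaliplatin 1 or 2 (0.0552 to 0.0724) and DLST without any one untreated library (0.0506 to 0.0567). With library size only PDHA1 and DLST were at adjusted p = 0.0506 and 0.0505, and with only the 2 groups compared DLST was at 0.0510. DLST was -0.43 without oxaliplatin 2, which was far below oxaliplatin 1 and 3. LIAS and DBT, named after their values were seen, were the other called genes, at -0.41 ± 0.13 and 0.48 ± 0.16 (adjusted p = 0.0422 and 0.0415). LIAS lost its call in 12 of 18 alternatives and DBT in 10. With the GC and length correction DBT came to -0.17 ± 0.08 (adjusted p = 0.170). The number that fell ranged from 0 to 5 over the alternatives. FDX1, the ferredoxin that acts before lipoylation, had 12.7, 14.3 and 15.4 CPM in oxaliplatin libraries, 12.3, 13.3 and 11.4 CPM in sorafenib libraries and 13.7, 20.1 and 17.1 CPM in untreated libraries. Oxaliplatin and untreated overlapped (adjusted p = 0.250), and sorafenib lay below untreated without passing the test (adjusted p = 0.124).

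Among other routes for platinum, SLC47A2, which encodes MATE2, had 3.03, 3.31 and 2.13 CPM in oxaliplatin libraries, 1.47, 0.738 and 0.965 CPM in sorafenib libraries and 1.76, 1.44 and 1.17 CPM in untreated libraries. It was the other called gene of 5 tested organic cation carriers beside SLC22A3, at 0.96 ± 0.31 in oxaliplatin over untreated (adjusted p = 0.0396), and the call ended without untreated 2 or 3, oxaliplatin 1 or 2 or sorafenib 3 (0.0558 to 0.125) and with no filter (0.0638). Of those 5 genes 1 rose and 1 fell, where 16.2% and 15.5% of all tested genes did. Of the 5 genes of the volume regulated anion channel, through which platinum drugs can enter, LRRC8B alone rose, where 16.2% of all tested genes did, at 0.52 ± 0.16 (adjusted p = 0.0357) and came to -0.01 ± 0.10 with the GC and length correction (adjusted p = 0.965). That call also ended without untreated 2 or 3, oxaliplatin 1 or 2 or sorafenib 2 (0.0502 to 0.127) and with the block (0.0709). LRRC8A, the subunit the channel cannot do without, had 98.6, 95.04 and 108 CPM in oxaliplatin libraries, against 109, 120 and 116 CPM in untreated libraries (adjusted p = 0.155). Its oxaliplatin values lay below all untreated ones, at a log2 fold change of -0.19 ± 0.10. With the GC and length correction LRRC8A was called lower, at -0.34 ± 0.09 (adjusted p = 0.0222).

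Of 7 tested ABC exporters of drugs or drug conjugates 5 rose in oxaliplatin against untreated, with a median of 0.70, where 16.2% of all tested genes were called higher. This list too was chosen with earlier results known. The 3 with the smallest adjusted p were ABCC5, ABCC4 and ABCC3, at 0.74 ± 0.14, 0.70 ± 0.14 and 0.64 ± 0.14 (adjusted p = 0.00514, 0.00595 and 0.00817), and over the alternatives 3 to 6 of the list rose. With the GC and length correction they came to 0.42 ± 0.09, 0.30 ± 0.10 and 0.38 ± 0.11 (adjusted p = 0.00965, 0.0405 and 0.0294), and ABCC4 lost its call when the block was added (0.0722). In sorafenib against untreated ABCC3 and ABCC1 rose, at 0.87 ± 0.14 (adjusted p = 0.0109) and 0.96 ± 0.23 (adjusted p = 0.0465). ABCC3 lost that call without untreated 2 or 3 or sorafenib 2 (0.0519 to 0.0527), and ABCC1 lost it without untreated 2 or 3, any oxaliplatin library, or sorafenib 2 or 3 (0.0533 to 0.172), with the block, alone (0.105) or with the correction (0.0827), and with only the 2 groups compared (0.0776). With ATP7A and MTF1 these were the only genes of the 10 lists called in sorafenib against untreated, where 4.8% of all tested genes were called. In the 7 lists with no call there, edgeR called 0 of 52 tested genes, 8 were higher and 7 lower at an unadjusted p under 0.05, and DESeq2 called 5 higher and 2 lower. The 4.8% is for edgeR at an adjusted p under 0.05 and is no background for the unadjusted or DESeq2 counts. The shares of all genes for those are not given here, so no excess can be read from them.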

How the data were processed

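Total RNA came from TRIzol extraction, and fragmented mRNA was turned into cDNA and read on an Illumina NovaSeq, per the labels' protocols. The authors deposited whole-number read counts per gene, unnormalized, made with featureCounts on GRCh38, and used DESeq2, per the submitters' processing notes. The aligner, annotation release, strand setting and treatment of reads with several alignments are not given in the sources used here.

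From the deposited counts, edgeR 4.0.16 in R 4.3.3 filtered genes (filterByExpr, 16159 left), scaled by TMM and fitted all 9 libraries with 1 coefficient per group by the robust quasi-likelihood method (biological coefficient of variation 0.224). Tests were 2-sided, with Benjamini-Hochberg adjustment over all tested genes. Standard errors are the log2 fold change over the square root of F. Exon lengths, GC content, strands and overlaps came from GENCODE 29, and promoters from RefSeq. No pair of libraries within a group was the same within counting noise (chi-square per degree of freedom 16.9 to 36.3), so none was treated as 1 library deposited again. This does not show that they are separate cultures.

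The 10 genes and the wider lists were chosen with earlier results of these data known. All 10 are named, and, per list and drug comparison with untreated, the 3 genes of at least 1 CPM with the smallest adjusted p were eligible. The 3 most similar genes were sought at a mean of at least 5 CPM. The 18 alternatives were DESeq2 1.42.0, RLE factors, library size only, no filter, a filter at a mean of 1 CPM, only the 2 groups compared, a block for the replicate number, a loess correction per library for GC content and length (span 0.5), block and correction together, and the omission of each library. Levels per kilobase of the shortest and longest coding transcript were added after seeing the data. The procedure was tested on simulated data.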

Additional observations from a re-analysis of the deposited data

How the results depend on the processing

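Over the 27 fold changes of single genes and 18 alternatives, 440 of 486 values kept their direction and their side of the threshold, 16 lost a call, 13 gained one and 17 changed sign. In oxaliplatin against untreated the number of the 9 genes called went to 5 with the GC and length correction, alone or with the replicate block, and was 3 to 4 with 1 library left out. In sorafenib against untreated it was 0 with no filter, with the replicate block, with the GC and length correction, with both, and with only the 2 groups compared, 3 by DESeq2, and 0 to 2 with 1 library left out. Between the drugs it was 2 to 4 with 1 library left out. The number of all genes called also changed with the setting, as shown for the replicate block below. These counts, and the ranges given for the lists above, therefore do not show a change particular to these genes.

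The sign changed with the GC and length correction, alone and with the block, for CCS in oxaliplatin over untreated (0.20 and 0.19) and for SCO1 in sorafenib over untreated (-0.16 and -0.15), and for SLC31A2 in oxaliplatin over sorafenib with library size only (0.058) and with the correction (0.034). With 1 library left out, SLC31A2 ranged from -0.17 to 0.36 in oxaliplatin over untreated, -0.15 to 0.20 in sorafenib over untreated and -0.22 to 0.31 between the drugs. ATP7B in sorafenib over untreated ranged from -0.31 to 0.074, and CCS from -0.45 to 0.00126 there and from -0.14 to 0.30 between the drugs. The cause of these changes was not tested, and none of these values was called.

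Same-numbered libraries of 2 groups did not deviate together (correlations -0.110 to 0.0299), and 1 of 9 correlated best with its own number. No pairing by replicate number was seen, though 3 libraries in each group are too few to exclude it. With the replicate block ATP7A in sorafenib over untreated was at 0.66 (adjusted p = 0.108), and 3773 of all genes were called for oxaliplatin over untreated, 184 for sorafenib over untreated and 809 between the drugs, compared with 5123, 775 and 1659 without it. Scaling by library size only moved the median of all genes to 0.131 in oxaliplatin over untreated, and ATP7B was then called at 0.81 (adjusted p = 0.0451). The GC and length correction moved that median to -0.0775, and to -0.058 in sorafenib over untreated and -0.0437 in oxaliplatin over sorafenib. Depth limits SLC47A1 and SLC31A2, and counting error alone bounds a count of 0.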
